A study of Mus musculus with 10 samples.

Results

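Narrow promoter peaks of protein-coding transcripts were described in the CUT&Tag peak table of glucose-treated mouse retinal explants. A peak was a member when the deposited annotation placed it at a promoter (within 1000 bases before and 500 bases after a start site) of a protein-coding transcript and when it was narrower than 2000 bases. The rule took 10154 of the 108253 peaks (9.38%), at 9204 genes. The study's methods name merged H3K18La peaks of 3 developmental ages, as many as the deposited table has, and for the explants they name merged peaks of both marks, so which libraries gave the peak set is not settled here. Position and width, which chose the members, were thus measured values, and they are given here as descriptions. Just inside the width limit, 120 members of 1950 to 1999 bases had a median H3K18La level of 0.98 RPKM at 5 mM glucose, and just outside it 92 peaks of 2000 to 2049 bases had 1.00 RPKM.

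The tissue was neural retina of wild-type C57BL/6J mice at postnatal day 28, dissected 2 h after lights on with the pigment epithelium and sclera removed, and kept as explants for 48 h in Neurobasal-A medium with 5 or 25 mM glucose. All groups shared this strain, age, medium and culture time. CUT&Tag, in which an antibody directs an enzyme to chromatin that carries a histone mark, was run on 500000 papain-dissociated cells per library for H3K18La in 3 libraries per glucose level and for H3K27Ac in 2 libraries per glucose level. The study's methods call the replicates biological, but the labels do not say whether they came from separate animals or cultures. The p-values therefore refer to the spread between these libraries, pooled over peaks as given below. Each library mixed all retinal cell types, so fewer cells of a type and less mark per cell cannot be told apart.

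H3K27Ac, acetylation of lysine 27 of histone H3, marks active promoters and enhancers. H3K18La is the lactate-derived acylation of lysine 18 of the same histone, and its supply of lactate comes from glycolysis, which photoreceptors run at a high rate even with oxygen present. Promoters of coding genes fall into CpG-rich ones, which often serve genes used in every cell, and CpG-poor ones, which often serve genes of specialised cells such as photoreceptors.

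The sequences of 9 members show the contrasts described below. The first set shows CpG content: Mpp4 (chr1:59161637-59161836, minus strand) and Cacna2d4 (chr6:119236326-119236525, plus strand) are CpG-poor photoreceptor promoters that rose in both marks, while Bckdha (chr7:25658982-25659163, minus strand), Lsg1 (chr16:30587593-30587792, minus strand) and Micos13 (chr17:56609772-56609971, minus strand) are CpG-richer promoters with large H3K27Ac rises. Each line gives, 5′ to 3′ on the gene's strand in GRCm38, up to 200 bases that end at the base before the start site, lie inside the peak and hold no annotated exon, and capitals mark every CpG.
Mpp4: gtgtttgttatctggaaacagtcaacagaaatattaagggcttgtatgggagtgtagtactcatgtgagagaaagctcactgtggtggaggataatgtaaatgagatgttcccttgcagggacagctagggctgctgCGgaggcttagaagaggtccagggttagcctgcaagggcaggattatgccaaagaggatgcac
Cacna2d4: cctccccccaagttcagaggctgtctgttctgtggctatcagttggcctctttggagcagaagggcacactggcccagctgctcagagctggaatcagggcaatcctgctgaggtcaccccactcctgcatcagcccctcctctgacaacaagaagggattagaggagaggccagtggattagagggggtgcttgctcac
Bckdha: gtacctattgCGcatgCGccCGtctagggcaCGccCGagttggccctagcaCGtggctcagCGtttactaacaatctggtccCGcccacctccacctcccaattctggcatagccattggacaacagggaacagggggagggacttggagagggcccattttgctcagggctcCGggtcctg
Lsg1: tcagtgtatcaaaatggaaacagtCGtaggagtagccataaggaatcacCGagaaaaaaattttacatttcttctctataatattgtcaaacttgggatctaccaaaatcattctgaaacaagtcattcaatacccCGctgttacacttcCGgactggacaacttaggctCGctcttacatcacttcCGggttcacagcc
Micos13: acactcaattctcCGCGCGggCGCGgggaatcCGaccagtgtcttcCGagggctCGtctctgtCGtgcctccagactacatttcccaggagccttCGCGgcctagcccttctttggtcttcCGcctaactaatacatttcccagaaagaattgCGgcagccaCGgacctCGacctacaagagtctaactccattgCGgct
The stretches held 1 CpG at Mpp4, 0 at Cacna2d4, 9 at Bckdha, 6 at Lsg1 and 16 at Micos13.

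The second set shows the letters TAATCC, the core that the photoreceptor homeodomain factors CRX and OTX2 recognise, at 4 members that rose in both marks: Crx (chr7:15879969-15880168, minus strand), Rp1 (chr1:4360315-4360514, minus strand), Lrit1 (chr14:37054630-37054829, plus strand) and Fabp12 (chr3:10301184-10301383, minus strand). Capitals mark TAATCC or its reverse complement GGATTA.
Crx: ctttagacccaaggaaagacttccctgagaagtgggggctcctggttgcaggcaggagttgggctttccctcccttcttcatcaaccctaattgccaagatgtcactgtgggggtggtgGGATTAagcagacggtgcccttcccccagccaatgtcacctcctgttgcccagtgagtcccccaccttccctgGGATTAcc
Rp1: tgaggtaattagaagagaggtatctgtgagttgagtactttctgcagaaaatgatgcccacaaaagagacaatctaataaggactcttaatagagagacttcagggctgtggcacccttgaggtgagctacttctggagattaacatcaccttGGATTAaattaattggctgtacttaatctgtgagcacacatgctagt
Lrit1: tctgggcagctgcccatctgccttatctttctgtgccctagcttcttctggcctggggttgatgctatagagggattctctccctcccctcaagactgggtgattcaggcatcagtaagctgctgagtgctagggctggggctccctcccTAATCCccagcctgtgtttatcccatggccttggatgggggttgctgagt
Fabp12: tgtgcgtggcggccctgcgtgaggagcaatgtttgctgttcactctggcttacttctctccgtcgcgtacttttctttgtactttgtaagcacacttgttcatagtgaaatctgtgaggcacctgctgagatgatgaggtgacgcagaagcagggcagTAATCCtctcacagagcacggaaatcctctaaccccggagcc
Crx itself held 2 copies in this stretch and each of the other 3 held 1. A match of letters is a description and not a bound site.

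Members were compact and centred on start sites. Their width ran from 222 to 1999 bases with a median of 1103, together 11.4 Mb. The annotated start site lay inside 9358 of them (92.2%), while 428 lay upstream and 368 downstream of it, and the median peak centre was 106.5 bases into the transcript. One member was present at 8389 genes and 2 or more at 815 genes, at most 6 at a gene and 5 each at the cytoskeletal linker gene Dst, the phosphodiesterase gene Pde4b and Tmcc1. A start site of another coding gene on the opposite strand lay within 1000 bases of the start site of 677 members (6.67%), called divergent promoters below. The ratio of observed to expected CpG was over 0.6 in 63.2% of members against 0.980% of the 91109 peaks outside promoters, with a median of 0.68 in members.

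The labelled tissue was checked against defining markers. Promoters of 18 of the 38 marker genes were members, among them Nrl of rods, Gnat2 and Arr3 of cones, Trpm1 and Cabp5 of bipolar cells and Rlbp1 of Müller glia. The rod genes Gnat1, Pde6b and Nr2e3 were absent because their promoter peaks were broader than the limit. Nrl, the rod-determining leucine zipper factor, stood at 38.3 RPKM of H3K27Ac at 25 mM glucose, while the endothelial genes Kdr and Cldn5 stood at 3.48 and 0.742, the lens gene Cryaa at 1.43 and the pigment epithelium genes Tyrp1 and Best1 at 1.25 or lower. Other retinal markers spanned a wide range on the same scale, from 1.11 to 4.13 RPKM in cones and 0.742 to 8.42 in Müller glia, with 9.31 at the bipolar gene Trpm1 and 27.6 at the amacrine gene Slc6a9. Ganglion cell markers at 0.651 and 0.799 and the horizontal cell gene Onecut1 at 0.951 were as low as those of the other tissues. In H3K18La at 25 mM the marker levels were less separate, with 8.61 RPKM at Nrl, up to 3.85 in cones, 2.65 in the pigment epithelium and 2.24 in Müller glia, and a longer list of pigment epithelium markers described below reached 8.88 RPKM of H3K18La and 16.9 of H3K27Ac. None of the 3 defining microglia markers had a member.

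Values were RPKM, reads per kilobase of peak, scaled by a library denominator. These denominators, recovered from the steps between values, were 1358008 to 7424470 reads. The median member held only 1 to 5 H3K18La reads per library at 5 mM and 5 to 7 at 25 mM, but 14 and 28 H3K27Ac reads per library at 5 mM and 84 and 62 at 25 mM. Differences at single H3K18La members therefore rest on few reads, and in the smallest library 29.3% of members had 0 reads.

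Members took up a larger share of each library at 25 mM glucose in both marks. In H3K18La their share of the denominator was 1.28%, 1.16% and 1.17% at 5 mM and 4.00%, 2.76% and 2.58% at 25 mM, a rise from 1.21% ± 0.069 to 3.11% ± 0.773 (SD, n = 3) or 2.58 times. In H3K27Ac it was 4.05% and 5.82% at 5 mM and 16.9% and 11.3% at 25 mM, 2.86 times higher on average. The glucose groups did not overlap in either mark, and 95% Wilson intervals, which cover counting error only, were no wider than 0.027 percentage points on each side. Without replicate 1 at 25 mM, the highest library of both marks, the ratios were 2.21 and 2.30.

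The same rise was seen over all peaks, so the share of peak reads that fell in members moved less. In H3K18La, members held 10.7%, 9.73% and 9.92% of the reads in peaks at 5 mM and 11.4%, 8.73% and 8.27% at 25 mM, and the groups overlapped. In H3K27Ac they held 19.2% and 18.5% at 5 mM against 24.3% and 20.1% at 25 mM, without overlap. All peaks together held 11.8% to 12% of the H3K18La denominator at 5 mM and 31.2% to 35.0% at 25 mM, and 21.1% to 31.5% against 56.5% to 69.5% in H3K27Ac. The part of this library-wide difference in the changes of single members was not tested.

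Narrow and broad promoter peaks were also set side by side within each library, as a description only, since width chose the members. The mean log2(RPKM + 0.5) of members minus that of the 946 broad promoter peaks (2000 bases or wider) was -0.268, -0.195 and -0.298 in H3K18La at 5 mM and -0.658, -0.558 and -0.503 at 25 mM. In H3K27Ac it was -0.162 and -0.215 at 5 mM and -0.436 and -0.327 at 25 mM. No 25 mM library reached the 5 mM libraries of its mark. Against peaks outside promoters the marks parted: members stood 0.981 and 1.09 above them in H3K27Ac at 5 mM and 1.87 and 1.47 above at 25 mM, whereas in H3K18La the differences of 0.123, -0.031 and 0.046 at 5 mM overlapped the 0.462, 0.054 and 0.032 at 25 mM.

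**Figure D1:**
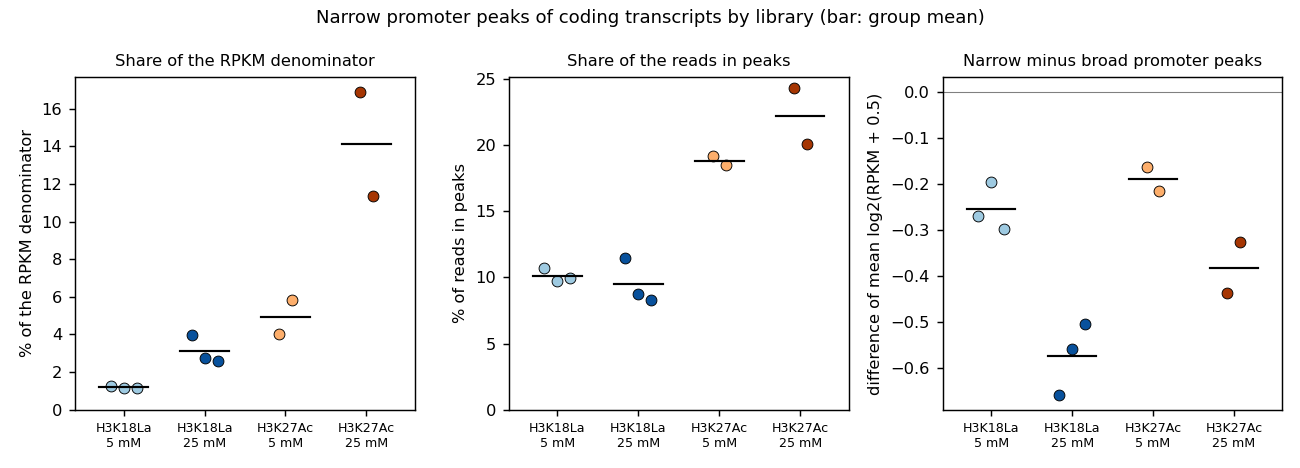
Each point is 1 library, placed by mark and glucose level on the horizontal axis, and bars are group means. The left panel plots the percentage of the RPKM denominator in members (3 H3K18La libraries at 25 mM from 2.58% to 4.00%, above the 5 mM libraries at 1.16% to 1.28%), the middle panel the percentage of reads in peaks, and the right panel the difference in mean log2(RPKM + 0.5) between narrow and broad promoter peaks, which is lower at 25 mM in every library of both marks.

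At single members, 25 mM glucose was tested against 5 mM with limma on log2(RPKM + 0.5) over all peaks with a mean of at least 1 RPKM in the mark, at an adjusted p of 0.05. This filter was passed by 7368 members in H3K18La and 9370 in H3K27Ac, and 2786 and 784 members failed it. H3K18La rose at 2105 members (28.6%), below the 37.3% of all peaks tested, and fell at 3, against 0.0869% of all peaks. H3K27Ac rose at 5715 members (61.0%), above the 33.9% of all peaks, and fell at 3, against 0.164%. The median log2 change of members was 1.00 in H3K18La and 1.28 in H3K27Ac, beside 1.10 and 0.84 over all peaks tested. Broad promoter peaks rose in 52.9% of cases in H3K18La and 73.0% in H3K27Ac. In the H3K27Ac fit the SE and p-value of a peak came from the trend of spread with level over all peaks. They did not use the spread of the peak's own libraries, so a small p-value there does not measure how well its replicates agree.

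Counted without a test over all 10154 members, every 25 mM library lay above every 5 mM library at 4378 members in H3K18La (43.1%, beside 36.6% of all peaks) and at 8438 in H3K27Ac (83.1%, beside 53.0% of all peaks). In H3K18La members therefore stood above all peaks by this count and below them by the share of calls among tested peaks. The calls depended on the scale, the filter and single libraries. Scaled to reads in peaks, which moved the median change of all peaks from 1.10 to 0.03 in H3K18La and from 0.84 to -0.22 in H3K27Ac, no member was called by limma in either mark (525 and 1592 had an unadjusted p under 0.05), and the median of members was -0.05 and 0.12. Leaving out replicate 1 at 25 mM gave 923 calls in H3K18La, with 908 of the 2105 rises kept. In H3K27Ac 1 library at 25 mM then remained and was assumed to vary like the 5 mM pair, and the median of members was 1.04. Without replicate 2 at 25 mM 1139 were called in H3K18La, with 1105 of the 2105 rises kept, and the H3K27Ac median of members was 1.53. With no filter on low values 1357 and 0 were called (6253 members in H3K27Ac had an unadjusted p under 0.05). Of 75 named members called in H3K27Ac, 2 stayed called without replicate 1, 12 without replicate 2 and 19 with the replicate number as a block, and all 75 lost the call with no filter. Of the rises, 819 in H3K18La and 140 in H3K27Ac were at members with a mean under 1 RPKM at 5 mM, which passed the filter only through the 25 mM libraries. Rises below are rises on the deposited scale. Shares and medians of gene groups stand beside 28.6% and 1.00 for all members tested and 37.3% and 1.10 for all peaks tested in H3K18La, and beside 61.0% and 1.28 for members and 33.9% and 0.84 for all peaks in H3K27Ac.

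**Figure D2:**
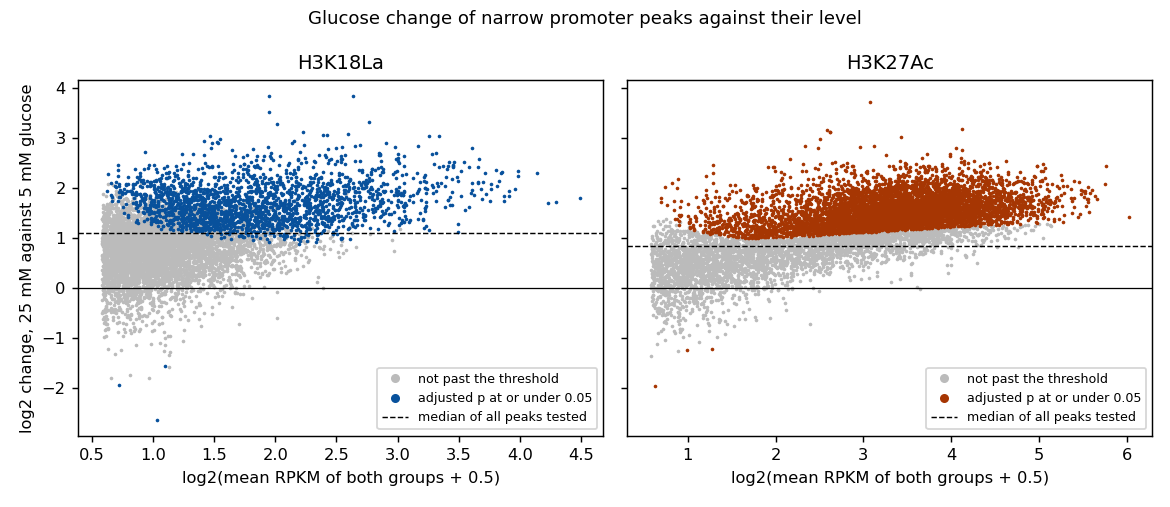
Each point is 1 member that passed the filter, with its level as log2(mean RPKM of both groups + 0.5) on the horizontal axis and its log2 change at 25 mM against 5 mM on the vertical axis. Coloured points passed an adjusted p of 0.05, and the dashed line is the median of all peaks tested, 1.10 in H3K18La and 0.84 in H3K27Ac, with most called members above it.

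The marks were compared directly by the difference of their glucose changes, fitted over all 10 libraries. None of the 9159 members tested passed in limma, as in all 72467 peaks (0.0%), and 517 members had an unadjusted p under 0.05. The voom fit on recovered reads also called none. Among 7192 members tested in both marks, 1591 rose in both (22.0% of all peaks tested in both did), which was 75.9% of the members that rose in H3K18La and 34.6% of those that rose in H3K27Ac. Over all peaks these shares were 52.8% and 59.0%. The numbers of reads behind a member differ between marks, so different numbers of calls do not show different responses.

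CpG content ordered the members differently in the 2 marks. H3K18La rose at 40.1% of the tested members with a CpG ratio up to 0.2, at 38.7% from 0.2 to 0.4, 30.4% from 0.4 to 0.6, 26.8% from 0.6 to 0.8 and 23.0% over 0.8. H3K27Ac ran the other way, with 35.4%, 41.1%, 54.5%, 66.0% and 71.4% over the same bins. The median log2 change went from 1.10 in the CpG-poorest bin to 0.95 in the CpG-richest in H3K18La, and from 0.84 to 1.41 in H3K27Ac. Levels moved with CpG content too: the median H3K27Ac level at 5 mM was 1.64 RPKM in the poorest and 4.34 in the richest bin, while that of H3K18La was 0.97 and 0.89.

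The H3K18La order held when the trend with base composition was removed within each library (38.6% in the poorest and 15.7% in the richest bin) and without replicate 1 at 25 mM (28.3% and 6.58%). In voom the shares were 48.7%, 50.3%, 47.5%, 41.4% and 37.9%, so the poorest bin was not the highest there. The H3K27Ac order held in voom (37.4% in the poorest and 77.6% in the richest bin), at a minimum mean of 2 RPKM (53.8% and 81.5%) and centred on the median of all peaks (10.2% and 25.3%). It did not hold with the composition trend removed, where the shares were 26.1%, 29.3%, 33.2%, 27.6% and 17.7%. That removal also takes out any glucose change shared by peaks of like base composition. Per library, mean log2(RPKM + 0.5) of members with a ratio up to 0.2 minus that of members over 0.8 was 0.048, 0.159 and 0.124 in H3K18La at 5 mM and -0.195, 0.235 and 0.208 at 25 mM, where replicate 1 had the opposite sign of the other libraries. In H3K27Ac it was -0.861 and -0.936 at 5 mM and -1.78 and -1.19 at 25 mM. The H3K27Ac groups did not overlap, and the H3K18La groups did. Broad promoters showed the same H3K18La order, from 76.9% in the poorest to 35.7% in the richest bin, but peaks outside promoters did not, at 37.3%, 40.0%, 34.4%, 39.6% and 21.7%.

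**Figure D3:**
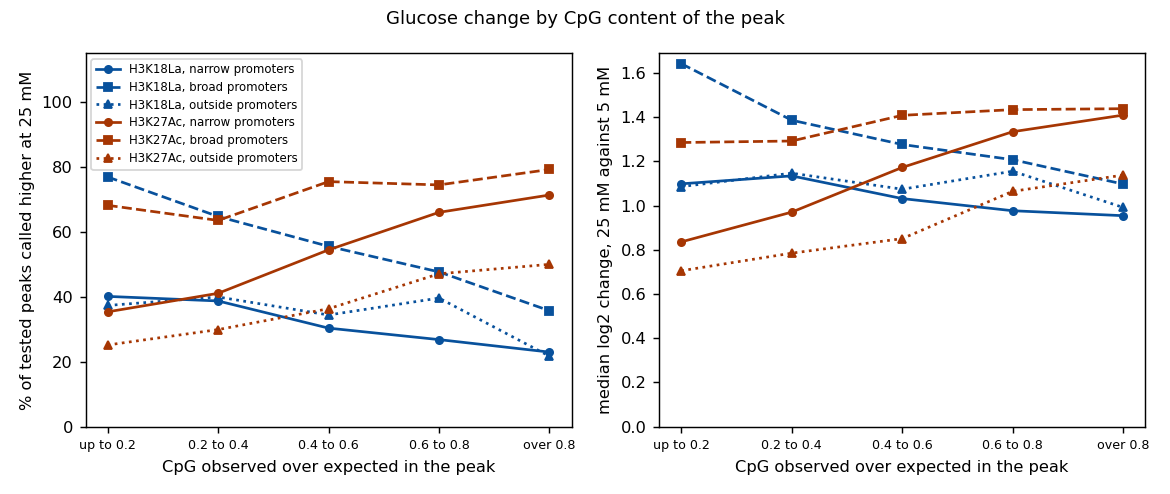
The horizontal axis gives bins of observed over expected CpG in the peak. The left panel plots the percentage of tested peaks called higher at 25 mM and the right panel the median log2 change, for members (solid), broad promoters (dashed) and peaks outside promoters (dotted), with H3K18La in blue, where members go from 40.1% to 23.0%, and H3K27Ac in red, where they go from 35.4% to 71.4%.

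Divergent promoters stood out in H3K27Ac. H3K27Ac rose at 585 of 669 tested divergent members (87.4%) and at 59.0% of the others, while H3K18La rose at 75 of 481 (15.6%) and at 29.5% of the others. Within members of a CpG ratio over 0.8 the shares were 89.1% and 69.3% in H3K27Ac and 9.66% and 24.3% in H3K18La. With the composition trend removed, the shares of all divergent members and all others were 39.6% and 25.1% in H3K27Ac and 10.8% and 23.8% in H3K18La. Per library, divergent members exceeded the others by 0.381 and 0.438 in mean log2(RPKM + 0.5) of H3K27Ac at 5 mM and by 0.901 and 0.799 at 25 mM, without overlap. In H3K18La the differences of -0.042, -0.082 and -0.064 at 5 mM overlapped those of -0.014, -0.230 and -0.214 at 25 mM.

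Genes with several narrow promoter peaks showed the reverse. H3K18La rose at 41.8% of tested members at genes with 2 or more members against 25.5% at genes with 1, and H3K27Ac at 53.9% against 62.5%. Members whose peak contained the start site rose in H3K27Ac at 62.4%, against 43.0% upstream and 36.5% downstream of it, and in H3K18La at 28.5%, against 33.3% and 24.9%. Wider members were called more often in both marks, from 22.4% to 38.7% in H3K18La and 42.4% to 68.4% in H3K27Ac between peaks up to 500 bases and those over 1500. Position and width were used by the selection, so nothing is read from these orders. Across the width limit itself H3K18La rose at 42.4% of the 99 tested members of 1950 to 1999 bases and at 42.0% of the 81 tested peaks of 2000 to 2049 bases.

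Motif letters were searched on both strands from 250 bases before to 50 bases after the start site, in 9999 distinct member windows and in 32544 windows of the same length from RefSeq (GRCm38.p6). The GC box GGGCGG, a core bound by SP and KLF factors, was in 59.5% of member windows and 35.9% of all RefSeq promoters, and the ETS core CCGGAAG in 14.1% and 8.91%. The TATA box letters TATAAA were in 7.18% of member windows and 13.6% of all promoters. TAATCC was as common in members (6.94%) as in all promoters (7.06%), and was in 13.1% of member windows with a CpG ratio up to 0.2. It was in 16 of 67 windows (23.9%) of the photoreceptor lists described below. Their median CpG ratios were 0.24 at phototransduction genes, 0.28 at outer segment genes and 0.61 at photoreceptor transcription factors. These lists differed among themselves, with 9 of 23 members (39.1%) at phototransduction genes, 5 of 23 (21.7%) at outer segment genes and 2 of 24 (8.33%) at photoreceptor transcription factors. Among lists of other retinal cells it was in 3 of 14 members (21.4%) of bipolar cell markers, 3 of 13 (23.1%) of Müller glia markers and 0 of 14 of amacrine, ganglion and horizontal cell markers.

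Members with different letters differed in their share of rises. Where the window held CCGGAAG, H3K27Ac rose at 74.7% of tested members against 58.6% elsewhere, and H3K18La at 19.5% against 29.97%. For CGCATGCG, the palindromic core of the nuclear respiratory factor NRF1, the H3K27Ac shares were 84.4% and 60.2% and those of H3K18La 23.2% and 28.7%. For TAATCC they were 65.6% and 60.6% in H3K27Ac and 36.3% and 27.97% in H3K18La. CpG content moved with these letters: CCGGAAG was in 1.96% of member windows with a CpG ratio up to 0.2 and in 18.2% of those over 0.8. TAATCC went the other way, at 13.1% and 5.38%. The part of CpG content in these shares was not tested.

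Genes of the photoreceptor outer segment rose at most of their members. In the list of outer segment, matrix and photoreceptor disease genes, 23 members at 18 of the 30 genes were all tested in both marks. Of these, 20 rose in H3K18La (87.0%) and 21 in H3K27Ac (91.3%). Their median log2 changes of 2.17 and 1.92 stood beside 1.10 and 0.84 over all peaks. Their median levels at 25 mM were 7.93 RPKM of H3K18La and 32.7 of H3K27Ac, beside 1.92 and 9.72 for all members. Calls rose with level. Of 5 groups of members ordered by H3K27Ac level, the highest had 88.0% called higher in H3K27Ac and 52.3% in H3K18La. The lowest had 7.06% and 9.10%. Ordered by H3K18La level, the highest group had 66.3% in H3K18La and 72.8% in H3K27Ac. The part of level in the shares of the gene lists was not tested. Mpp4, a scaffold protein of the photoreceptor synapse (peak chr1:59161334-59162110), had 2.44, 1.74 and 0.948 RPKM of H3K18La at 5 mM and 24.9, 15.2 and 12.6 at 25 mM, and 14.0 and 21.8 RPKM of H3K27Ac against 92.9 and 56.9. The groups did not overlap in either mark, and the log2 changes were 3.03 (SE 0.36, adjusted p = 0.000387) and 2.03 (SE 0.55, adjusted p = 0.00387).

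Cdhr1, a cadherin at the base of the outer segment, went from 2.03, 4.41 and 3.16 RPKM of H3K18La to 27.6, 17.2 and 18.8, a log2 change of 2.57 (SE 0.30, adjusted p = 0.000387). Its H3K27Ac rose by 2.14 (SE 0.55, adjusted p = 0.00222), from 10.2 and 20.2 RPKM to 88.4 and 48.1. Rdh8, the photoreceptor retinol dehydrogenase, and Impg1, a proteoglycan of the matrix around photoreceptors, changed in H3K18La by 2.43 and 2.22. Rp1, a microtubule protein of the outer segment axoneme, rose by 2.79 in H3K18La and 2.49 in H3K27Ac, although its 5 mM H3K18La values of 2.22, 0.902 and 0 RPKM rest on few reads. All of these separated the glucose groups in both marks.

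Phototransduction genes rose less uniformly. Of 23 members at 17 of 32 genes, 15 of 23 tested (65.2%) rose in H3K18La, where 28.6% of all members did, and 13 of 20 (65.0%) in H3K27Ac, near the 61.0% of all members. The medians were 1.67 and 1.83, beside 1.10 and 0.84 over all peaks. Guca1b, an activator of retinal guanylate cyclase, had 1.60, 2.27 and 3.72 RPKM of H3K18La at 5 mM and 31.7, 14.5 and 16.5 at 25 mM, a log2 change of 2.79 (SE 0.36, adjusted p = 0.000475). Cngb1, a subunit of the rod cyclic nucleotide-gated channel, rose by 2.01, and Rcvrn, which encodes the calcium sensor recoverin, by 1.99. The cone transducin gene Gnat2 stayed near the filter, with 0.894 to 2.78 RPKM of H3K18La at 5 mM and 2.78 to 5.4 at 25 mM, and was not called (adjusted p = 0.0739).

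Photoreceptor transcription factors rose at 15 of 22 tested members (68.2%) in each mark, which is far from the 28.6% of all members in H3K18La but near their 61.0% in H3K27Ac. The medians were 1.70 and 1.78, beside 1.10 and 0.84 over all peaks. Crx, the homeobox factor of rods and cones (peak chr7:15879224-15880458), had 2.69, 1.56 and 1.19 RPKM of H3K18La at 5 mM and 14.4, 7.57 and 4.91 at 25 mM, a log2 change of 1.96 (SE 0.42, adjusted p = 0.00499). Its H3K27Ac went from 8.05 and 12 to 70.8 and 41.2 RPKM, a change of 2.40 (SE 0.53, adjusted p = 0.000524). Nrl rose by 2.65 in H3K18La and 2.41 in H3K27Ac, and Neurod1, a basic helix-loop-helix factor of photoreceptors, by 2.64 and 2.03. Casz1, a zinc finger factor, had 0.333 to 0.542 RPKM of H3K18La at 5 mM and 4.03 to 8.57 at 25 mM, a change of 2.64. It passed the filter only through the 25 mM libraries and kept its call with no filter (adjusted p = 0.00706).

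Otx2, the homeobox factor that acts before Crx, was a weak case in H3K18La. Its values were 13.2, 4.61 and 2.93 RPKM at 5 mM and 12.2, 15.7 and 16.1 at 25 mM, so the groups overlapped, and the log2 change of 1.27 (SE 0.42, adjusted p = 0.0335) became -0.09 when libraries were scaled to reads in peaks. The 3 photoreceptor lists kept medians above 0 under that scale in both marks, at 0.95, 0.64 and 0.47 in H3K18La for outer segment, phototransduction and transcription factor members, beside 0.03 for all peaks, and at 0.69, 0.63 and 0.52 in H3K27Ac, beside -0.22, although no member was called there.

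The largest H3K18La rise among members with at least 30 reads and no overlap of the groups was at Rorb, an orphan nuclear receptor required for rods (peak chr19:19000901-19001409). Its values were 0, 1.52 and 0 RPKM at 5 mM and 9.99, 10.1 and 12.6 at 25 mM, a log2 change of 3.83 (SE 0.53, adjusted p = 0.000612) that depends on the added 0.5 RPKM. H3K27Ac at the same peak rose from 4.09 and 6.01 to 30.9 and 19.8 RPKM, by 2.21 (SE 0.50, adjusted p = 0.000589). Msi1, an RNA-binding protein of the Musashi family, followed with a change of 3.52 from 0, 0.227 and 0 RPKM to 11.4, 4.63 and 3.97. Both passed the filter only through the 25 mM libraries, and both kept their H3K18La calls with no filter (adjusted p = 0.00827 for Rorb and 0.00712 for Msi1).

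The other members of this kind belonged to genes of several functions. Ppp1r42, a regulator of protein phosphatase 1, rose by 3.32 in H3K18La and 1.72 in H3K27Ac, and Katna1, the microtubule-severing katanin, by 3.05 and 2.03. Fabp12, a fatty acid-binding protein, had 0.926, 2.64 and 1.44 RPKM of H3K18La at 5 mM and 16.9, 13.9 and 18.4 at 25 mM, a change of 3.03 (SE 0.34, adjusted p = 0.000358), with a change of 2.33 in H3K27Ac. Plk5, of the polo-like kinase family, rose by 3.08, the bradykinin receptor gene Bdkrb2 by 3.11 and the zinc finger gene Zfp827 by 3.05. Bdkrb2 rested on 38 and Zfp827 on 42 H3K18La reads in all, and neither was called in H3K27Ac (adjusted p = 0.309 and 0.337). Bdkrb2 passed the H3K18La filter only through the 25 mM libraries and kept its limma call with no filter (adjusted p = 0.0307). Zfp827 lost its call with no filter (adjusted p = 0.0552).

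Of the 5 members with the highest H3K18La at 25 mM, 4 had a CpG ratio under 0.2, and Wdr17 had 0.47. Fcamr, the Fc receptor for IgA and IgM, had 8.51, 10.4 and 9.44 RPKM at 5 mM and 31.3, 43.5 and 28.5 at 25 mM, a log2 change of 1.79 (SE 0.20, adjusted p = 0.000352). Cacna2d4, an auxiliary calcium channel subunit of photoreceptor synapses, had 6.18, 5.03 and 5.2 against 35.1, 25.8 and 25.7, a change of 2.29 (SE 0.21, adjusted p = 0.000352). Agpat3, a phospholipid acyltransferase, Wdr17, a WD repeat protein, and Ankrd33, a photoreceptor ankyrin repeat protein, rose by 1.71, 1.69 and 2.33, and the glucose groups did not overlap at any of the 5.

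Wdr17 also had the highest H3K27Ac at 25 mM on the mean of both libraries, at 108 and 78.0 RPKM against 25.7 and 45.0 at 5 mM, a change of 1.42 (SE 0.57, adjusted p = 0.0422). Tub, whose loss causes photoreceptor degeneration in tubby mice, rose from 12.5 and 19.1 to 122 and 59.9 RPKM, by 2.43 (SE 0.55, adjusted p = 0.000687). Lrit1, a leucine-rich repeat protein of photoreceptors, rose by 2.08 in H3K27Ac and 2.24 in H3K18La. RPKM is per length, so these levels can be set beside one another within a mark.

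The largest H3K27Ac rises lay at other genes. Trim21, a cytosolic antibody receptor and ubiquitin ligase (peak chr7:102565221-102565999), had 0.297 and 1.03 RPKM at 5 mM and 21.4 and 8.99 at 25 mM, a log2 change of 3.71 (SE 0.43, adjusted p = 1.22e-13). Irgm2, an immunity-related GTPase, rose by 3.15 (SE 0.42), from 0.291 and 1.01 RPKM to 15.4 and 5.41. Tap1, the peptide transporter of antigen presentation, rose by 3.12, from 0.689 and 0.575 to 15.9 and 5.37, and Bst2, the membrane protein tetherin, by 2.84, from 0.765 and 0.533 to 12 and 4.90. At each of these 4 the replicate 1 library at 25 mM held more than the other 25 mM library, and both lay above the 5 mM libraries. All 4 were under 1 RPKM at 5 mM on average, so they passed the filter only through the 25 mM libraries, and with no filter none was called (adjusted p = 0.125 for each).

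H3K18La, measured in separate libraries, was also uneven among those at 25 mM at these 4 promoters. Its values at 25 mM were 10.4, 5.05 and 0.866 RPKM at Trim21, 9.59, 4.94 and 0.847 at Irgm2, 10.6, 6.01 and 2.01 at Tap1 and 6.73, 2.98 and 1.12 at Bst2, so replicate 3 at 25 mM was the lowest each time. It lay below the 1.89 RPKM of a 5 mM library at Trim21 and below the 1.62 RPKM of a 5 mM library at Bst2, so those groups overlapped. The log2 changes were 2.18 (SE 0.77, adjusted p = 0.0441) at Trim21, 2.64 (SE 0.73, adjusted p = 0.0161) at Irgm2 and 2.03 (SE 0.51, adjusted p = 0.0106) at Tap1, while that of 1.45 (SE 0.59, adjusted p = 0.0712) at Bst2 was not called. With no filter Tap1 alone of these kept its call (adjusted p = 0.0445). No list of such genes was used, so no group count is given for them.

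Bckdha, a subunit of the branched-chain keto acid dehydrogenase, shared a divergent promoter and rose by 3.18 in H3K27Ac (SE 0.49, adjusted p = 1.91e-07), from 2.48 and 3.23 RPKM to 39.3 and 22.5. Its H3K18La was 1.27, 0.775 and 0 RPKM at 5 mM and 4.77, 0.329 and 0.451 at 25 mM, with overlapping groups. Serpina3n, an acute-phase protease inhibitor, rose by 3.12 in H3K27Ac, Map4k1, a kinase of blood cells, by 3.02, and Rad23b, a DNA repair protein, by 2.97. H3K18La was not called at any of these 4.

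**Figure D4:**
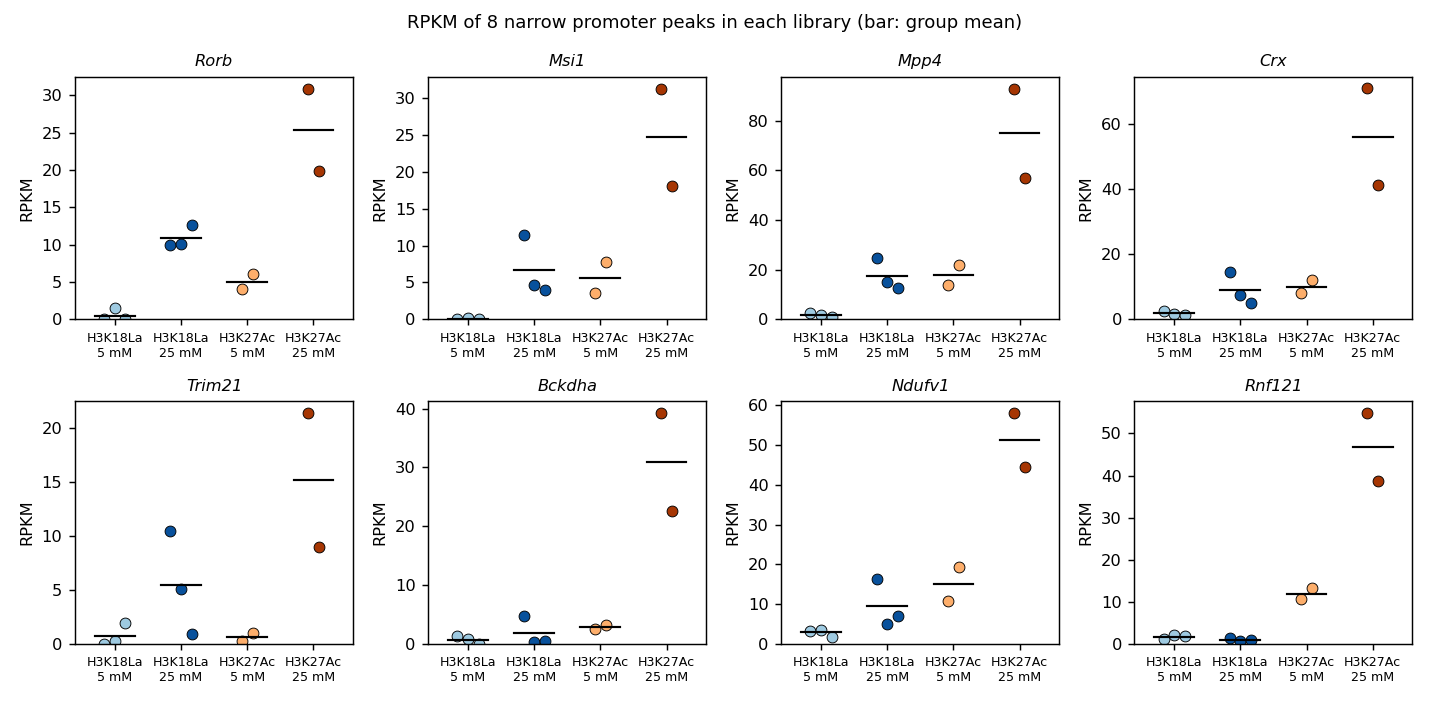
Each panel plots RPKM at 1 member in the 10 libraries, grouped on the horizontal axis by mark and glucose level, with bars at group means. Rorb, Msi1, Mpp4 and Crx separate the glucose groups in both marks, while at Trim21, Bckdha and Rnf121 the H3K27Ac groups are apart and the H3K18La groups overlap. Ndufv1 is shown for the respiratory genes.

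Falls were rare, and all 6 failed the minimum of 30 reads, so these names were chosen after their values were seen. In H3K18La, Lhx3, a LIM homeobox factor, had 1, 4 and 3 reads at 5 mM and 0 in all 3 libraries at 25 mM, at least 2.77-fold lower when the 25 mM group is given a floor of 3 reads (log2 change -2.62, SE 0.72, adjusted p = 0.0154). Dot1l, the H3K79 methyltransferase, rested on 8 and the early B-cell factor gene Ebf1 on 7 H3K18La reads. In H3K27Ac the falls were at a promoter of the focal adhesion gene Tns1 (16 reads), at Serpina1e, an alpha-1-antitrypsin gene (10 reads), and at Selenop, the plasma selenium carrier (10 reads). Serpina1e has near-identical paralogs, so its reads may be shared.

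Glycolysis and lactate genes rose at 14 of 24 tested members (58.3%) in H3K18La, where 28.6% of all members did, and at 17 of 27 (63.0%) in H3K27Ac, about the 61.0% of all members. Their medians of 1.34 and 1.41 stood beside 1.00 and 1.28 for all members and 1.10 and 0.84 for all peaks. Their median H3K18La level at 25 mM was 3.43 RPKM, beside 1.92 for all members. With libraries centred on the median of all peaks, 1 of the 24 was called higher in H3K18La, beside 316 of 7368 members. The medians were then 0.71 and 0.37. Hk1, the hexokinase that starts glycolysis, had 3.22, 2.84 and 5.83 RPKM of H3K18La at 5 mM and 21.9, 10.4 and 9.16 at 25 mM, a log2 change of 1.64 (SE 0.37, adjusted p = 0.00616), and its H3K27Ac rose by 2.14. Eno1, the enolase, rose by 2.08 and 1.60, and Gpi1, glucose-6-phosphate isomerase, by 1.72 and 1.45. Bsg, the chaperone of lactate transporters, rose by 1.42 in H3K18La and missed the threshold in H3K27Ac (adjusted p = 0.0602). Aldoa, the muscle-type aldolase gene, had a broad promoter peak and was no member.

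In the list of pyruvate dehydrogenase and citrate cycle genes, 11 of 26 tested members (42.3%) rose in H3K18La and 24 of 29 (82.8%) in H3K27Ac, with medians of 1.11 and 1.51 beside 1.10 and 0.84 over all peaks. Idh1, the cytosolic isocitrate dehydrogenase, rose by 1.56 and 2.00, and Sdhb, a succinate dehydrogenase subunit, by 1.64 and 2.08. Of glucose and energy sensing genes, 7 of 21 (33.3%) rose in H3K18La and 21 of 28 (75.0%) in H3K27Ac, among them Hif1a, the hypoxia-inducible factor, by 1.89 and 1.36. Insr, the insulin receptor, had a change of 1.15 in H3K18La that was not called (adjusted p = 0.0951) and rose by 1.29 in H3K27Ac.

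Genes of ribosomes and mitochondria had many H3K27Ac calls and, at the filter of 1 RPKM, few H3K18La calls. H3K27Ac rose at 54 of 60 cytosolic ribosomal protein members, 46 of 51 mitochondrial ribosomal protein members and 43 of 50 members at respiratory chain and ATP synthase subunits, with medians of 1.53, 1.54 and 1.69 beside 0.84 over all peaks and 1.28 over all members. H3K18La rose at 3 of 40, 5 of 36 and 6 of 37 tested (6, 7 and 12 in voom), with medians of 0.87, 0.90 and 1.04 beside 1.00 for all members and 1.10 for all peaks. At a minimum mean of 2 RPKM few of these members were left, and H3K18La rose at 3 of 5, 2 of 8 and 7 of 9 of them, beside 60.2% of all members at that filter. Scaled to reads in peaks, these H3K18La medians turned to -0.19, -0.22 and -0.05, while those of H3K27Ac were 0.35, 0.34 and 0.50. The difference between marks was not past the threshold at any of these members.

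Ndufv1, a subunit of respiratory complex I (peak chr19:4012671-4013105), had 10.6 and 19.2 RPKM of H3K27Ac at 5 mM and 58.2 and 44.6 at 25 mM, a log2 change of 1.79 (SE 0.54, adjusted p = 0.00795). Its H3K18La of 3.27, 3.55 and 1.69 RPKM at 5 mM and 16.4, 5.09 and 6.98 at 25 mM was called (adjusted p = 0.0209), and the groups did not overlap in either mark. Rpl10a rose in H3K27Ac by 2.11 and Mrpl11 by 1.75, and these encode proteins of the cytosolic and the mitochondrial large ribosomal subunit. Rpl19, also of the cytosolic large subunit, rose by 1.80 in H3K27Ac and had 1.56, 0.954 and 1.21 RPKM of H3K18La against 3.77, 2.23 and 2.22, which was not called (adjusted p = 0.108).

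Proteasome subunits rose at 20 of 23 members (87.0%) in H3K27Ac and 3 of 13 tested (23.1%) in H3K18La. At Psmb1, a proteasome core subunit, H3K27Ac rose by 1.46, while H3K18La was 1.75, 1.78 and 2.72 RPKM at 5 mM and 1.88, 3.18 and 0.622 at 25 mM. Histone acyltransferases rose at 11 of 13 members in H3K27Ac and at 0 of 10 tested in H3K18La in limma (1 at an unadjusted p under 0.05, and 4 in voom), with an H3K18La median of 0.74. Kat5, the acetyltransferase TIP60, rose by 2.13 in H3K27Ac. Histone deacylases rose at 12 of 14 and 4 of 10, among them Hdac2 by 1.31 in H3K27Ac and 1.80 in H3K18La.

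Cilium and BBSome genes rose at 28 of 31 members (90.3%) in H3K27Ac and 12 of 25 tested (48.0%) in H3K18La, with medians of 1.68 and 1.17 beside 0.84 and 1.10 over all peaks. Bbs7, a subunit of the BBSome, rose by 1.83 in H3K27Ac and 2.90 in H3K18La, and Arl3, the GTPase that releases lipidated cargo in cilia, by 2.10 and 1.40. Ribbon and synaptic genes rose at 18 of 32 (56.3%, under the 61.0% of all members) and 13 of 23 (56.5%), with Syt1, the calcium sensor of vesicle release, at 13.7 and 21.1 RPKM of H3K27Ac against 92.2 and 48.9, a change of 1.95, and a change of 1.97 in H3K18La. Sv2b, a synaptic vesicle glycoprotein, changed by 1.67 and 2.43, and Vamp2, the vesicle SNARE, by 1.59 in H3K27Ac.

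Immediate early and clock genes rose at 14 of 26 tested members (53.8%) in H3K18La, where 28.6% of all members did, and at 20 of 30 (66.7%) in H3K27Ac, near the 61.0% of all members. Their medians of 1.56 and 1.59 stood beside 1.10 and 0.84 over all peaks. Fos, the immediate early transcription factor, had 1.99, 1.08 and 1.55 RPKM of H3K18La at 5 mM and 19.98, 7.59 and 6.38 at 25 mM, a change of 2.38 (SE 0.43, adjusted p = 0.00198), and rose by 2.13 in H3K27Ac. The clock genes Per1 and Bhlhe41 rose by 2.19 and 1.87 in H3K18La and by 1.99 and 1.93 in H3K27Ac. None of the groups overlapped at these 3 genes.

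Markers of inner retinal cells had few members. Bipolar cell markers rose at 7 of 8 tested members in H3K18La and 11 of 13 in H3K27Ac. Trpm1, the channel that ON bipolar cells open in response to light, rose in H3K27Ac by 2.80 (SE 0.42, adjusted p = 1.09e-07). Its values went from 0.740 and 1.03 RPKM to 11.4 and 7.19. The mean at low glucose was under the filter, so Trpm1 passed only through the high-glucose libraries. With no filter limma did not call it (adjusted p = 0.125). In H3K18La Trpm1 failed the filter. Müller glia markers rose at 3 of 8 (37.5%) and 7 of 11 (63.6%), the latter near the share of all members. Among them Car2, a carbonic anhydrase, rose by 2.02 in H3K18La and 1.76 in H3K27Ac, Clu, which encodes clusterin, by 1.55 and 1.5, and Rlbp1, the retinaldehyde-binding protein, by 1.33 in H3K27Ac. Amacrine, ganglion and horizontal cell markers rose at 3 of 5 and 5 of 9, among them a promoter of the glycine transporter gene Slc6a9 by 1.82 and 1.73.

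None of the endothelial and pericyte markers was called higher, among 5 tested members in H3K18La and 6 in H3K27Ac in limma, with medians of 0.09 and -0.32 beside 1.10 and 0.84 over all peaks. In each mark 0 of them had an unadjusted p under 0.05 upward and 1 downward, and voom called 0 higher. Kdr, the VEGF receptor, had 0.817, 1.16 and 1.27 RPKM of H3K18La at 5 mM and 1.31, 1.06 and 1.16 at 25 mM, and 4.38 and 2.91 RPKM of H3K27Ac against 3.83 and 3.13, with overlapping groups in both marks. Lens and cornea markers had 0 rises of 4 and of 6 in limma (0 at an unadjusted p under 0.05 and 0 in voom), with medians of 0.31 and 0.47. Pigment epithelium markers rose at 4 of 5 tested members in H3K18La and 3 of 4 in H3K27Ac, among them Krt18, a keratin, by 1.68 and 2.06. In H3K18La 1 member was lower at an unadjusted p under 0.05.

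Large gene families served as a comparison. Zinc finger genes named Zfp rose at 41 of 188 tested members (21.8%) in H3K18La and 144 of 236 (61.0%) in H3K27Ac, solute carriers at 46 of 121 and 84 of 149, and transmembrane genes named Tmem at 26 of 99 and 73 of 118. Potassium channels rose at 10 of 26 and 18 of 42, protocadherins at 1 of 7 and 4 of 10, and keratins at 1 of 7 and 2 of 3. Olfactory receptors, which sensory neurons of the nose use, had 16 members with median levels of 0.54 and 0.59 RPKM of H3K18La at 5 and 25 mM, and 1 of 4 rose in H3K18La and 0 of 2 in H3K27Ac. Vomeronasal receptors had 0 rises of 3 in each mark (0 at an unadjusted p under 0.05), no Hox member passed the filter, and the single microglia member was not called in H3K18La and not tested in H3K27Ac.

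Of 30 genes that the study names in its text, 24 had 28 members, and 22 of 27 tested rose in H3K18La and 25 of 28 in H3K27Ac. The study chose some of them on these explants, for which the count is not independent evidence of direction, and others on the developing retina or on explants with a glycolysis inhibitor. Besides Rorb, Crx, Mpp4 and Eno1, they include Kdm5b, an H3K4 demethylase, which rose by 2.22 in H3K18La and 1.43 in H3K27Ac, Egr1, an immediate early zinc finger factor, which rose by 1.84 in H3K27Ac, and Reep6, a membrane trafficking protein of rods, which rose by 1.36 and 1.54.

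**Figure D5:**
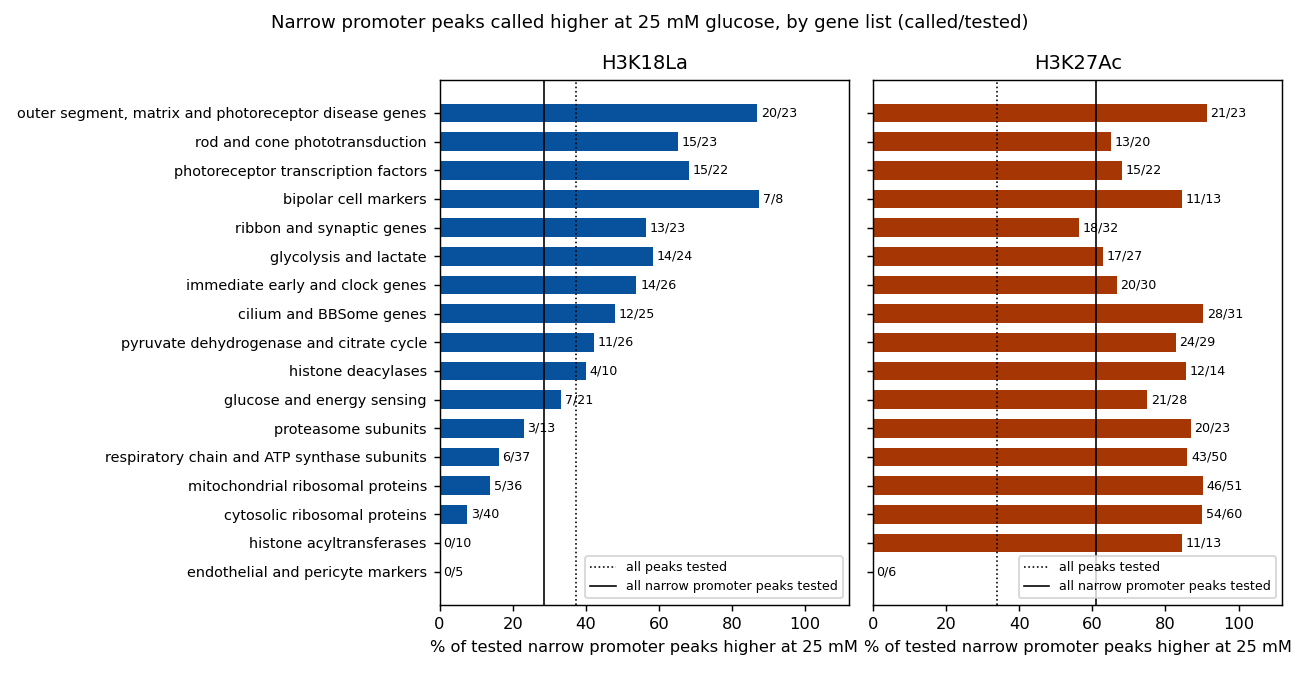
Bars give the percentage of tested members called higher at 25 mM for each gene list (called over tested at the bar end) in H3K18La on the left and H3K27Ac on the right. The solid line marks all members tested (28.6% and 61.0%) and the dotted line all peaks tested (37.3% and 33.9%). Outer segment genes stand highest or near it in both marks (20 of 23 and 21 of 23), and ribosomal and respiratory genes pass the solid line in H3K27Ac but not in H3K18La.

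The members whose marks differed most in their glucose change were Rnf121, Wbp11, Lhx3, Lsg1 and Micos13, by the smallest unadjusted p, although none passed after adjustment (adjusted p = 0.903 for each in limma). Rnf121, an endoplasmic reticulum ubiquitin ligase, had 10.7 and 13.2 RPKM of H3K27Ac at 5 mM and 54.9 and 38.7 at 25 mM, a change of 1.91, and 1.22, 1.98 and 1.89 RPKM of H3K18La against 1.30, 0.631 and 0.865. The difference of the changes was 2.53 (SE 0.54). Wbp11, a splicing protein, had H3K18La of 2.66, 1.45 and 2.07 RPKM against 1.43, 1.15 and 1.58, with a change of 2.13 in H3K27Ac. Both are divergent promoters.

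Lsg1, a GTPase of ribosome assembly, had 4.75 and 5.44 RPKM of H3K27Ac at 5 mM and 24.7 and 17.2 at 25 mM, a change of 1.92, and 2.78, 1.98 and 3.24 RPKM of H3K18La against 2.99, 0.722 and 0.990. Micos13, a subunit of the complex that shapes mitochondrial cristae, had a change of 2.05 in H3K27Ac, from 2.21 and 5.51 RPKM to 16.4 and 16.0, and failed the filter in H3K18La. H3K18La at these 4 rests on 9 to 30 reads over the 6 libraries.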

How the data were processed

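CUT&Tag values of 10 libraries were used. Per the study's methods, the authors aligned reads to GRCm38 with nf-core/cutandrun, called MACS peaks, kept those seen in 2 or more replicates, annotated them with ChIPseeker (Ensembl) and counted reads with csaw over merged peaks. The deposited values are RPKM, and whether scaling factors over 10000-base windows enter the denominators is not given in the sources used here. A second deposited file holds only the authors' own H3K18La comparison (fold changes and p-values) and was not used. All values gave whole reads within a tolerance of 0.01 of a read.

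The members and gene lists were chosen with earlier results of these data known. The deposited unit is RPKM, so in place of the count model of the study limma 3.58.1 (lmFit, eBayes with trend, R 4.3.3) was fitted to log2(RPKM + 0.5) over all peaks with a mean of at least 1 RPKM, per mark, with Benjamini-Hochberg adjustment over all peaks tested. Fold changes on this scale understate changes of low peaks. The code was tested on simulated data. Named genes were the 8 largest rises per mark with at least 30 reads and no overlap, the 5 highest at 25 mM per mark, the members of highest level in each list, genes the study names and the 5 smallest p of the difference between marks. Permutation tests planned for the shares were not run, since 3 against 3 libraries cannot pass 0.05 and members were chosen on measured peaks. Sequences came from the RefSeq GRCm38.p6 assembly, and exons from GENCODE on the same build. Alternatives were other pseudocounts, filters, scales, moderation, limma voom on recovered reads, a replicate block, each library left out, and, chosen after seeing the data, removal of the base composition trend in 20 bins. All 3 pairs of H3K18La libraries at 5 mM did not differ beyond sampling noise (chi-square per degree of freedom 1.01 to 1.02), as low depth would also give, and were kept apart. The other pairs differed beyond it, at 1.12 to 1.59 in H3K18La at 25 mM, 1.13 in H3K27Ac at 5 mM and 3.44 in H3K27Ac at 25 mM. Averaging replicates 2 and 3 gave 2040 calls. A few items withheld for evaluation are not reported here.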

Additional observations from a re-analysis of the deposited data

How the results depend on the processing

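Of the members, 2108 in H3K18La and 5718 in H3K27Ac were called. With no filter on low values the counts were 1357 and 0 (6253 members had an unadjusted p under 0.05 in H3K27Ac), centred on the median of all peaks 322 and 2040, and scaled to reads in peaks 0 and 0. At a threshold of 0.01 they were 752 and 2787. The voom fit on recovered reads called 3172 members in H3K18La and 6189 in H3K27Ac. With the composition trend removed, 1697 and 2468 were called, with medians of 0.90 and 0.76. The replicate numbers did not pair the libraries (correlations of deviations from -0.046 to 0.046 over members), and a replicate block gave 1998 calls in H3K18La and 1657 in H3K27Ac. Of its 1997 H3K18La rises, 1869 were among the 2105 of the main fit. Leaving out 1 library gave 923 to 1979 calls in H3K18La (lowest without replicate 1 at 25 mM, 1139 without replicate 2 at 25 mM) and 2 to 7193 in H3K27Ac (2 without replicate 1 and 265 without replicate 2 at 25 mM). The difference between marks had 0 calls in every alternative run. Fewer libraries or peaks entered some of these fits, and otherwise the cause was not tested.

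Restricted to members under 1000 bases, the denominator share rose by 0.406 percentage points in H3K18La and 2.03 in H3K27Ac, the share of peak reads by 0.485 in H3K27Ac, and the contrast with broad promoters moved by -0.414 and -0.319. With a pseudocount of 0.1 this contrast moved by -0.224 in H3K18La. The log2 change of Otx2 in H3K18La became -0.090 when scaled to reads in peaks. Depth limits H3K18La at single members, where a median member held 1 to 7 reads.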
